A study of Solanum lycopersicum with 12 samples.

Results

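Roots of tomato (Solanum lycopersicum) carrying the slstop1 mutation were compared with wild type (WT) roots, both exposed to aluminium (Al). The comparison took every gene with 1 FPKM or more in at least 3 of the 6 libraries with Al, which left 13090 of the 35768 gene models in the deposited table, 25056 of which were above 0 in any library. The tested plants were slstop1 mutants in a solution of 60 µM Al at pH 4.7, and their controls were WT plants in the same solution. The series also holds slstop1 and WT plants at 0 µM Al and pH 4.7. Those 6 libraries entered the same fit, where they add to the estimate of the spread and show what the genotypes did without Al. All plants were 20 days old, total RNA came from roots, and each of the 4 groups had 3 replicates that the labels call biological. The sample titles write KO for slstop1. Beyond that, the labels give neither the kind of lesion in slstop1, nor the number of mutant lines, nor the length of the exposure, nor the number of plants behind a replicate. FPKM counts sequenced fragments per transcript length and per library total, so it is a level relative to its library. In bulk roots, fewer cells of a type and less RNA per cell cannot be told apart.

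STOP1 is a zinc finger transcription factor first described in Arabidopsis, where it is needed for root growth in acid medium and in the presence of Al ions. In that species it switches on genes for the release of organic acids, which bind Al outside the root, and genes for Al tolerance in the cell wall and the vacuole. Al ions act mainly at the growing root tip, where they stop cell elongation and cell division within hours of contact. The question here was which transcripts differ in an Al-exposed root when the tomato STOP1 gene is disrupted.

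SlSTOP1 itself was lower in slstop1. SlSTOP1 (Solyc11g017140.2, chromosome 11) read 29.1, 30.0 and 27.6 FPKM in slstop1 with Al, against 85.8, 80.8 and 88.6 FPKM in WT with Al. The groups lay far apart, with a log2 difference of -1.52 ± 0.138 (SE; limma adjusted p = 0.000134). Part of the transcript level remained in slstop1, and the table does not show whether those transcripts are intact. Without Al the log2 difference was -0.91, and the interaction, which is the difference with Al minus that without, was -0.61 (adjusted p = 0.168).

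The libraries themselves differed between genotypes. In slstop1 with Al 12424 ± 171 genes reached 1 FPKM, against 13361 ± 181 in WT with Al, and the 10 most abundant genes held 11.2 ± 0.467% of the summed FPKM in slstop1 and 7.51 ± 0.666% in WT (SD, n = 3). Neither measure overlapped between the genotypes (two-sided exact permutation tests, each with p = 0.1, which is the lowest value possible with 3 samples against 3). Spearman correlations between libraries were 0.9646 to 0.9715 within slstop1, 0.9334 to 0.9565 within WT and 0.9025 to 0.941 between the genotypes. How many reads each library had is not known, since FPKM is already divided by that total.

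On the FPKM scale most genes that differed between the genotypes with Al were lower in slstop1. In all, 1530 genes in slstop1 differed from WT at a Benjamini-Hochberg adjusted p under 0.05 (limma on log2(FPKM + 1)), which is 11.7% of those tested. Of these, 192 (1.47%) were higher and 1338 (10.2%) were lower in slstop1. The lower genes had a median log2 difference of -1.03, and 708 of them reached 1 in size, 136 reached 2 and 41 reached 3. The higher genes had a median of 1.09, with 110, 20 and 6 past the same sizes. All 3 slstop1 libraries lay below all 3 WT libraries for 27.5% of the tested genes, and above them for 9.21%. Among the called genes the groups were free of overlap for 191 of the 192 higher and 1333 of the 1338 lower genes. The calls rest on the same values, so this count is largely set by the selection.

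The excess of lower genes depended on the scaling. The median log2 difference of all 13090 genes was -0.14 on the FPKM scale. Median-of-ratios scaling moved it by 0.1848, to 0.045, and quantile normalisation moved it by 0.2026, to 0.063. The calls then split into 559 higher and 865 lower genes with median-of-ratios scaling, or 60.74% lower in place of 87.45%, and into 454 higher and 718 lower with quantile normalisation, or 61.26% lower. All 192 higher genes stayed higher and called with median-of-ratios scaling, and 179 did so under both scalings. Of the 1338 lower genes, 859 stayed called with median-of-ratios scaling, 708 with quantile normalisation and 660 with both. The total also depended on single libraries. It was 987, 668 or 1020 without replicate 1, 2 or 3 of slstop1 with Al, 884 without replicate 1 of WT with Al, and 2478 without replicate 3 of WT without Al, whose values set part of the common spread.

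**Figure D1:**
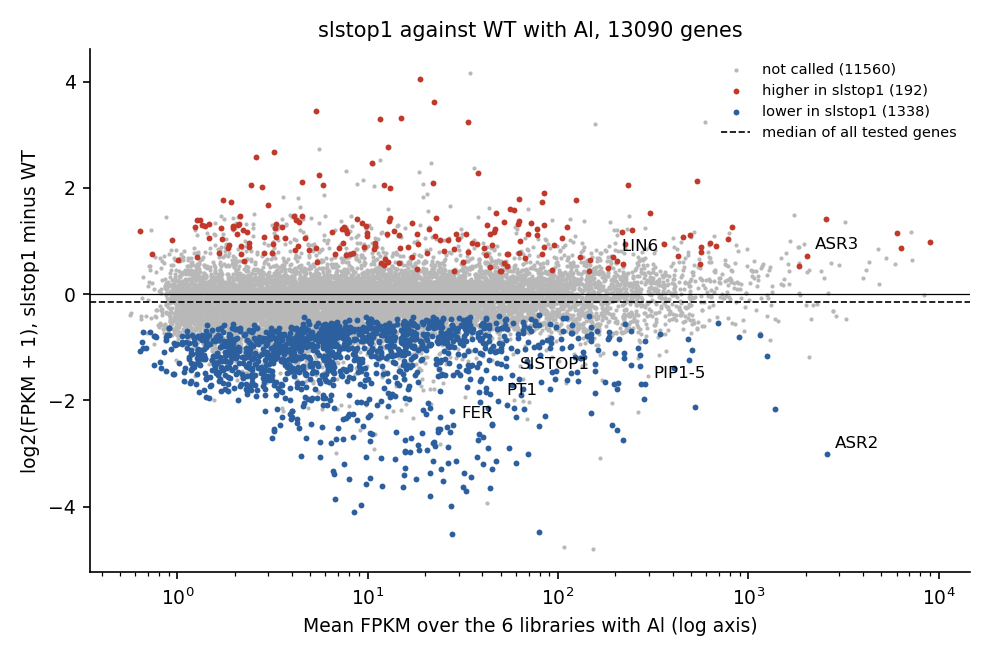
Each point is 1 of 13090 genes, placed by its mean FPKM over the 6 libraries with Al (log axis) and by its difference in log2(FPKM + 1), slstop1 minus WT. The 192 higher genes are red, the 1338 lower genes are blue and the rest grey; the dashed line is the median of all genes, at -0.14, and the blue cloud is the wider and denser of the 2 called sets.

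The shift was strongest among genes of low and moderate level. Genes with a mean under 2 FPKM over the 6 libraries had a median log2 difference of -0.23, those from 2 to 5 FPKM of -0.26, and those from 5 to 20 FPKM of -0.16. The median was -0.05 from 20 to 100 FPKM and 0.0059 above 100 FPKM. The share called lower was 11.9% between 5 and 20 FPKM and 5.17% above 100 FPKM, while the share called higher was 1.19% and 2.47% in the same ranges. Genes of low level can pass the filter through a single genotype, and more genes reached 1 FPKM in WT than in slstop1. How far the filter shaped the shift at low level was not tested. By chromosome, the share called higher was largest on chromosome 7, with 33 of 968 genes (3.41%). The share called lower was also largest on chromosome 7, with 116 of 968 genes. Over all tested genes 1.47% were higher and 10.2% were lower.

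Set beside the plants without Al, the genes called lower had lower median levels in the groups with Al. Their mean FPKM had a median of 4.08 in slstop1 with Al, 10.3 in WT with Al, 24.0 in slstop1 without Al and 24.9 in WT without Al. Over all tested genes these medians were 9.10, 11.02, 12.5 and 12.6 in the same groups. The higher genes showed the opposite order, with 21.3 in slstop1 with Al, 9.51 in WT with Al, 6.29 in slstop1 without Al and 4.73 in WT without Al. In both sets the order of the genotypes with Al is set by the calls themselves. Over the genes lower in slstop1, the median genotype difference without Al was -0.06, against 0.015 over all tested genes, and 857 of 1338 (64.05%) lay below 0 there, against 46.01% of all tested genes. Over the higher genes the median without Al was 0.21, and 142 of 192 (73.96%) lay above 0, against 53.5% of all. The genotype contrasts with and without Al share no library; across all genes, which are not independent replicates, their log2 differences correlated at r = 0.2587. The difference between the 2 contrasts itself, the interaction, passed the test for 212 genes (1.62%). Of these, 194 were among the lower and 11 among the higher genes, and the difference with Al is itself part of that term.

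**Figure D2:**
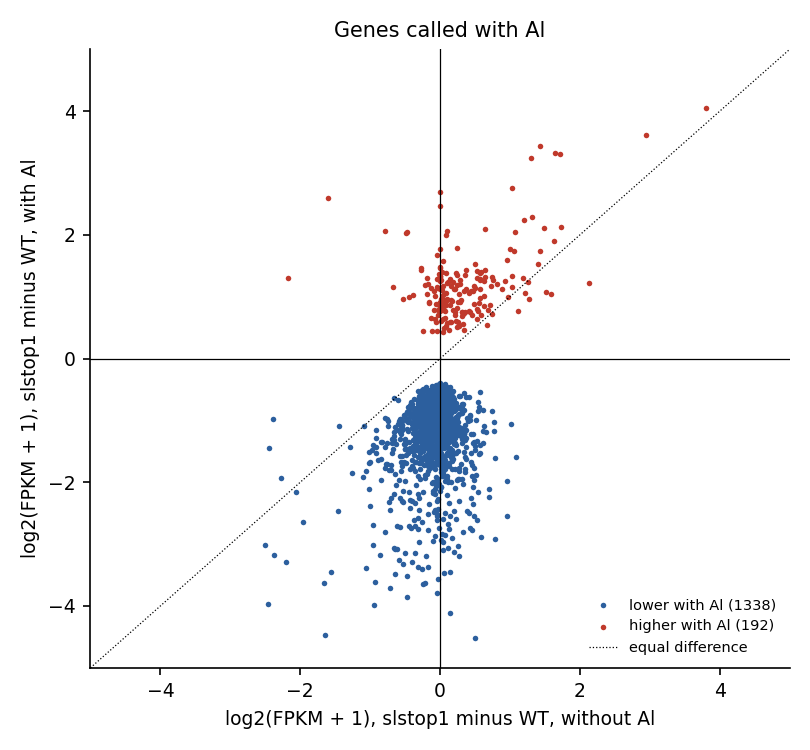
Each point is 1 of the 1530 genes called with Al, placed by its log2 difference, slstop1 minus WT, without Al (horizontal) and with Al (vertical); the dotted line marks equal differences. Lower genes (blue) gather around 0 without Al, with a median of -0.06, and higher genes (red) lie slightly to the right of 0, with a median of 0.21.

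The deposited table holds Solyc identifiers and no gene names. Names were assigned from published nomenclature where RefSeq (assembly SLM_r2.1) lists the same symbol on the chromosome that the identifier gives, which held for 201 of 309 recorded identifiers, and SlSTOP1 was added as the study's own target. Of the named genes 136 were tested, in 33 of 36 lists of function; 26 were lower and 5 were higher in slstop1, where 10.2% and 1.47% of all tested genes were. Calls were made over all tested genes. The scalings and left-out libraries that ended a call are named beside it. Every called gene described here kept its sign under every alternative.

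**Figure D3:**
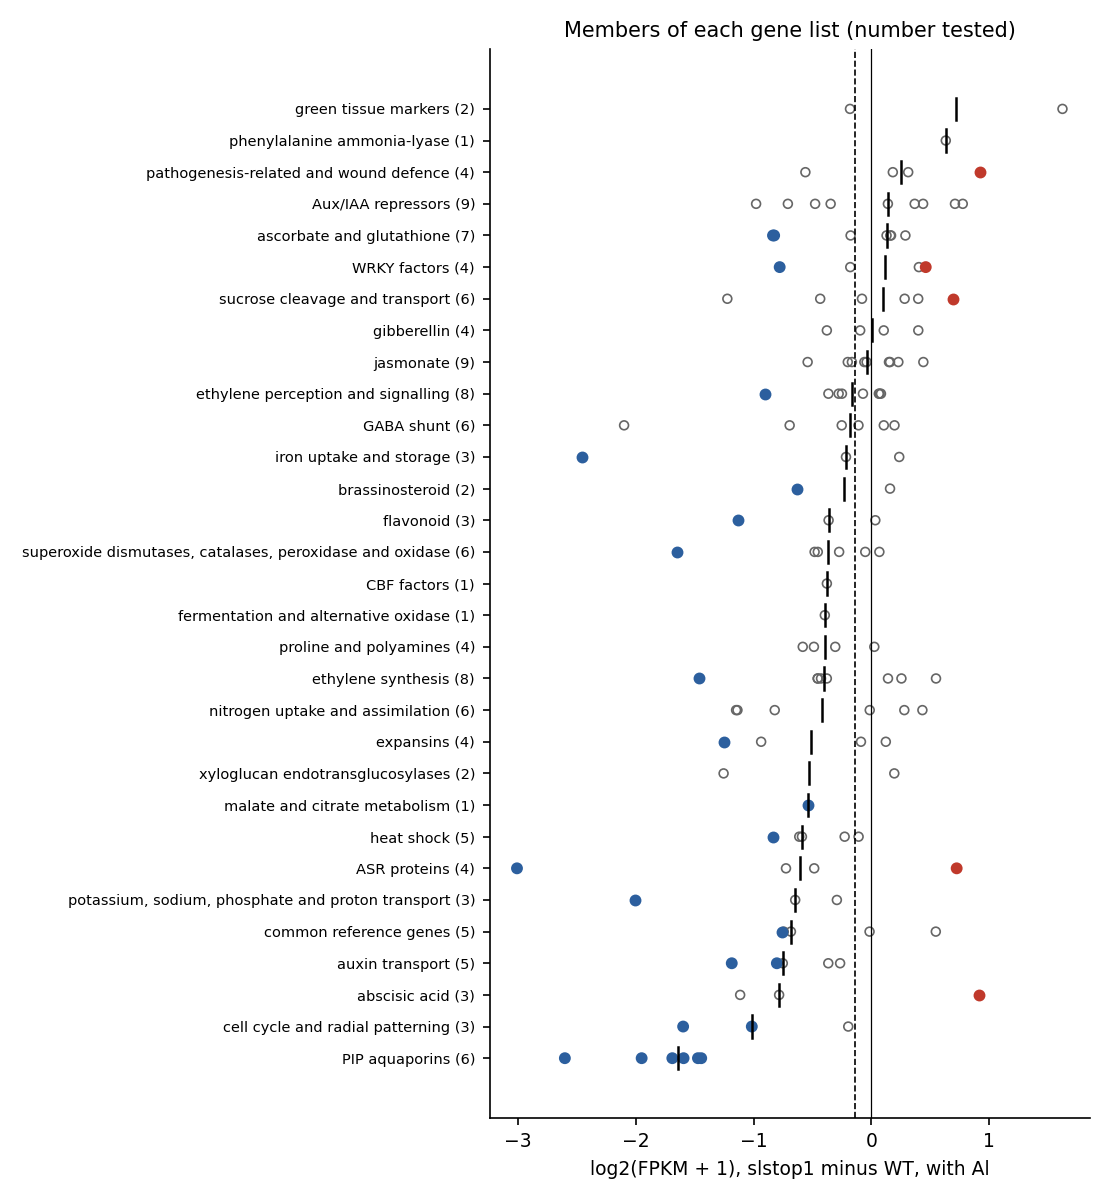
Each point is a named gene in its list, placed by its log2 difference, slstop1 minus WT, with Al; blue and red points passed the test lower and higher, open points did not, bars are list medians and the dashed line is the median of all tested genes, at -0.14. The aquaporins stand at the bottom with a median of -1.64 and all 6 named members called lower.

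Every tested member of the plasma membrane aquaporin list, 6 of 6, was lower in slstop1. These proteins, the PIPs, form water channels in the plasma membrane and carry water into and across the root. Of 11 recorded PIP identifiers, 6 had a name that RefSeq matched, and the others were left out of the list. The members' median log2 difference was -1.64, against -0.14 over all tested genes, and 10.2% of all tested genes were lower. Their summed level was 302, 226 and 304 FPKM in slstop1 with Al, against 824, 919 and 913 FPKM in WT with Al. Without Al the sum was 2798, 4286 and 3519 FPKM in the mutant and 4255, 4458 and 2320 FPKM in WT. The genotypes overlapped there, but the low WT value came from replicate 3 alone. That library had 13966 genes at 1 FPKM or more, against 14511 to 14753 in the other libraries without Al. The interaction missed the threshold for each of the 6 genes, with log2 values from -3.12 to -1.15 and limma adjusted p from 0.0566 for PIP1-7 to 0.266 for PIP2-6. It was missed in 21 of 22 alternatives for PIP1-7, PIP1-5 and PIP2-9 (lowest limma adjusted p 0.0183, 0.0239 and 0.0337). For the other members it was missed in all 22. The sum was therefore low in all Al-exposed roots and lowest in those of slstop1.

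PIP1-5 (Solyc08g081190.3, chromosome 8), the most abundant, read 140, 113 and 154 FPKM in slstop1 with Al, against 427, 437 and 447 FPKM in WT with Al (log2 -1.69 ± 0.300 SE, limma adjusted p = 0.00552). PIP1-3 (Solyc12g056220.2) read 74.7, 55.3 and 69.0 FPKM in slstop1, against 162, 186 and 207 FPKM in WT (log2 -1.47 ± 0.225, adjusted p = 0.00271). The WT replicates of both genes lay close together, well clear of the mutant. PIP1-7 (Solyc03g096290.3) had the largest difference of the list, with 7.39, 3.88 and 6.32 FPKM in slstop1 against 56.0, 28.1 and 39.5 FPKM in WT (log2 -2.60 ± 0.504, adjusted p = 0.00849). These 3 calls held under every alternative.

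PIP2-9 (Solyc10g055630.2) read 5.90, 3.01 and 7.09 FPKM in slstop1 with Al, against 22.4, 45.0 and 11.02 FPKM in WT with Al, and averaged 444 FPKM in the mutant and 458 FPKM in WT without Al. Its log2 difference with Al was -1.95 ± 0.401 (adjusted p = 0.0111), and the call was lost without replicate 2 of slstop1 (adjusted p = 0.0534). PIP2-6 (Solyc11g069430.2) read 53.0, 37.8 and 48.7 FPKM in slstop1, against 97.4, 190 and 151 FPKM in WT (log2 -1.59 ± 0.414, adjusted p = 0.0306). PIP2-4 (Solyc06g011350.3) read 20.3, 12.3 and 19.7 FPKM in slstop1, against 58.5, 33.1 and 57.1 FPKM in WT (log2 -1.44 ± 0.367, adjusted p = 0.0279). Both lay below WT in every library. PIP2-6 missed the threshold with quantile normalisation (adjusted p = 0.0524) and without any single slstop1 replicate or replicate 2 or 3 of WT (0.0615 to 0.121). PIP2-4 missed it without any single slstop1 replicate or replicate 1 or 3 of WT (0.0519 to 0.121). Aquaporins are a family of similar sequences, and the table does not show how reads shared between them were assigned.

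**Figure D4:**
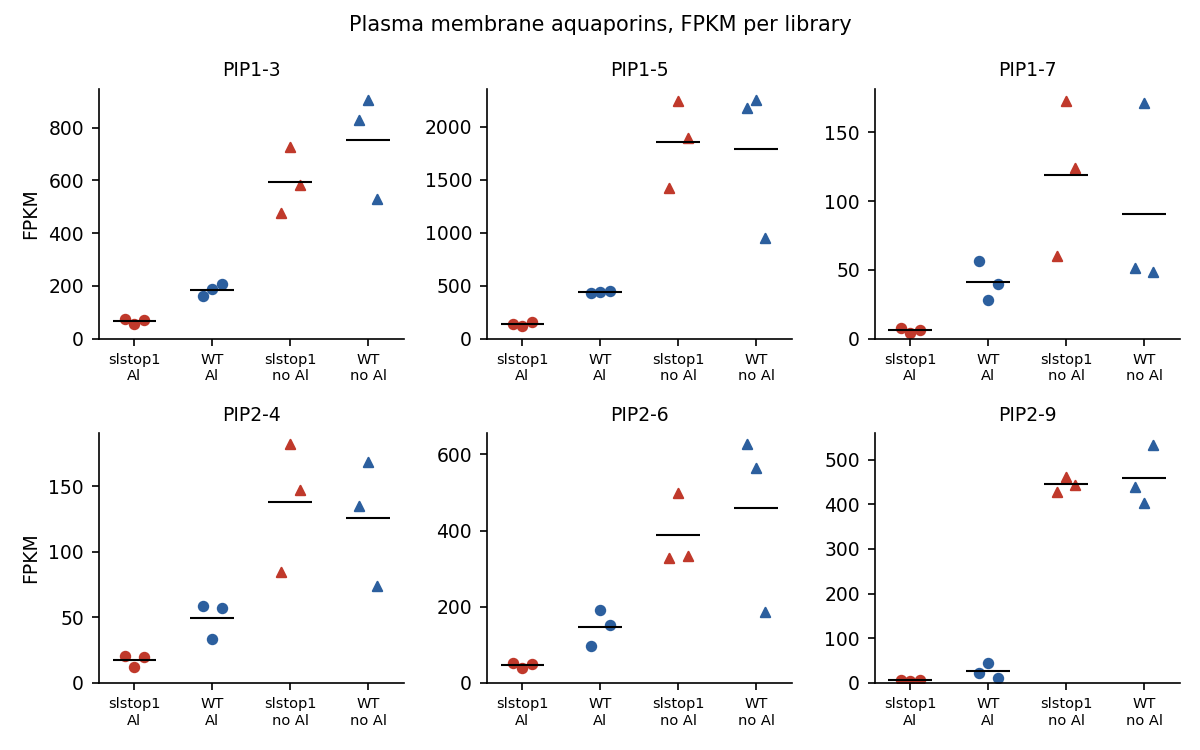
FPKM of the 6 named plasma membrane aquaporins in each library, with slstop1 in red and WT in blue, circles with Al and triangles without, and bars at the means of 3 replicates. In every panel the 3 slstop1 libraries with Al lie below the 3 WT libraries with Al, while the genotypes overlap without Al.

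Among genes of mineral nutrition, a regulator of iron uptake and a phosphate transporter were among the lower genes in slstop1. FER (Solyc06g051550.3, chromosome 6), the helix-loop-helix factor that turns on iron uptake in tomato roots, read 7.20, 7.44 and 7.97 FPKM in slstop1 with Al, against 57.6, 27.4 and 60.5 FPKM in WT with Al. The slstop1 libraries agreed closely and replicate 2 of WT was the nearest to them (log2 -2.45 ± 0.267 SE, limma adjusted p = 0.000396). The other tested members of the iron list were CHLN, the nicotianamine synthase (74.8 ± 9.89 FPKM in slstop1, 63.7 ± 12.9 FPKM in WT; SD, n = 3), and the metal transporter NRAMP3 (11.01 ± 1.203 FPKM in slstop1, 13.0 ± 2.11 FPKM in WT). Neither passed the test (adjusted p = 0.674 and 0.52).

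PT1 (Solyc09g090070.1, chromosome 9), a phosphate transporter of the root, read 18.5, 17.5 and 19.9 FPKM in slstop1 with Al, against 69.4, 75.1 and 90.3 FPKM in WT with Al. The groups lay far apart (log2 -2.01 ± 0.290, adjusted p = 0.00208). FER and PT1 kept these calls under every alternative. For both genes the interaction also passed, but only narrowly, and it was lost in 17 of 22 alternatives for FER and 15 of 22 for PT1. FER averaged 30.9 FPKM in the mutant and 51.2 FPKM in WT without Al (interaction log2 -1.74, adjusted p = 0.0474). PT1 averaged 177 FPKM in the mutant and 205 FPKM in WT without Al (interaction log2 -1.89, adjusted p = 0.0474). The proton pump LHA4, in the same list of ion transporters, had 127 ± 11.2 FPKM in the mutant and 199 ± 25.6 FPKM in WT and did not pass the test (adjusted p = 0.0775). It was called lower in 2 of 23 alternatives (limma adjusted p down to 0.00611).

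None of the 6 tested genes of nitrogen uptake and assimilation passed. The nitrate reductase NIA read 220, 222 and 193 FPKM in slstop1, against 451, 464 and 495 FPKM in WT (log2 -1.15, adjusted p = 0.0819). These groups lay apart, but the adjusted p missed the threshold. NIA was called lower in 2 of 23 alternatives (limma adjusted p down to 0.00177). The glutamine synthetase GS1 had 755 ± 78.3 FPKM in the mutant and 558 ± 51.7 FPKM in WT (log2 0.43, adjusted p = 0.103) and passed higher with median-of-ratios scaling (0.0224). The most abundant gene of the list, the glutamate dehydrogenase GDH, had 1845 ± 130 FPKM in the mutant and 1876 ± 306 FPKM in WT; the 95% interval of its log2 difference ran from -0.37 to 0.34. Of organic acid metabolism, 1 named gene was tested. The malic enzyme ME1 (Solyc12g044600.3) read 38.7, 28.1 and 31.9 FPKM in slstop1, against 41.6, 49.6 and 52.9 FPKM in WT. This small difference (log2 -0.54 ± 0.143, limma adjusted p = 0.0339) was not called with median-of-ratios scaling (adjusted p = 0.13), with quantile normalisation (0.0766), or when any 1 of 5 libraries was left out (0.0535 to 0.148), which were replicates 2 and 3 of each genotype with Al and replicate 1 of slstop1 without Al. None of the 6 tested genes of the GABA shunt passed either. GABA-T1, the most abundant of these transaminases, had 969 ± 50.3 FPKM in the mutant and 849 ± 110 FPKM in WT.

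Of the 4 ASR genes, neighbours on chromosome 4, ASR2 was lower and ASR3 higher in slstop1, and the other two did not pass. ASR proteins are small hydrophilic proteins named for their induction by abscisic acid, stress and ripening. ASR2 (Solyc04g071580.3) read 598, 507 and 496 FPKM in slstop1 with Al, against 5450, 2425 and 5974 FPKM in WT with Al. The highest slstop1 library was thus well under the lowest WT library (log2 -3.01 ± 0.349 SE, limma adjusted p = 0.000605), and the call held under every alternative. Without Al the difference was -2.50, with 199 ± 48.5 FPKM in the mutant and 1148 ± 343 FPKM in WT, and the interaction was -0.51. ASR3 (Solyc04g071590.3) read 2374, 2490 and 2679 FPKM in slstop1 with Al, against 1649, 1324 and 1602 FPKM in WT with Al. It was thus higher in the mutant (log2 0.73 ± 0.199, adjusted p = 0.0378). That call was lost with quantile normalisation (adjusted p = 0.186) and without any single library with Al, replicate 3 of slstop1 without Al or replicate 2 of WT without Al (0.0512 to 0.114). ASR1 had 313 ± 20.0 FPKM in the mutant and 451 ± 130 FPKM in WT, ASR4 had 15.8 ± 4.32 FPKM in the mutant and 28.2 ± 13.0 FPKM in WT, and neither passed. The family's members are similar in sequence, so part of their reads may be exchanged between them.

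Ethylene genes with a call were lower in slstop1, 1 of 8 tested in synthesis and 1 of 8 in perception, shares near the 10.2% of all tested genes that were lower. ACO4 (Solyc02g081190.3), an ACC oxidase that makes ethylene from its precursor, read 54.1, 30.6 and 62.8 FPKM in slstop1 with Al, against 185, 126 and 97.9 FPKM in WT with Al (log2 -1.46 ± 0.286 SE, limma adjusted p = 0.0088). The groups did not overlap and the call held under every alternative. NR (Solyc09g075440.3), the ethylene receptor Never ripe, read 8.11, 8.83 and 9.80 FPKM in slstop1, against 20.2, 13.8 and 19.2 FPKM in WT (log2 -0.90 ± 0.157, adjusted p = 0.005). It held under every alternative other than a minimum log2 difference of 1. The median log2 difference was -0.40 over the synthesis genes and -0.16 over those of perception.

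Of 5 tested auxin transport genes 2 were lower in slstop1, against 10.2% of all tested genes, and 0 of 5 were called under either scaling. LAX3 (Solyc11g013310.2), an auxin influx carrier, read 4.69, 4.46 and 4.19 FPKM in slstop1, against 8.59, 11.6 and 6.05 FPKM in WT (log2 -0.80 ± 0.216 SE, limma adjusted p = 0.035). The efflux carrier PIN2 (Solyc07g006900.2), which marks the outer layers of the root tip, averaged under 5 FPKM in both groups with Al and is named here after its values were seen. It read 1.01, 0.45 and 1.25 FPKM in slstop1, against 2.87, 5.84 and 1.91 FPKM in WT (log2 -1.18 ± 0.319, adjusted p = 0.035), and averaged 39.9 FPKM in the mutant and 31.7 FPKM in WT without Al. Neither gene was called with median-of-ratios scaling (adjusted p = 0.137 for LAX3 and 0.0595 for PIN2) or quantile normalisation (0.202 and 0.0699). LAX3 was not called when any 1 of 8 libraries was left out (0.0501 to 0.106), all 6 with Al but replicate 3 of WT, replicates 1 and 2 of slstop1 without Al, and replicate 1 of WT without Al. PIN2 was not called when any 1 of 6 libraries was left out (0.0517 to 0.144), the 3 of slstop1 with Al, replicates 1 and 2 of WT with Al, and replicate 1 of slstop1 without Al.

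Other hormone lists held few calls. None of 9 Aux/IAA repressors of auxin response passed, with log2 differences from -0.98 to 0.78; IAA4 (234 ± 24.7 FPKM in slstop1, 145 ± 37.1 FPKM in WT; adjusted p = 0.0593) passed higher under both scalings, and IAA15 passed higher with median-of-ratios scaling. None of 9 jasmonate genes and none of 4 gibberellin genes passed, and their medians were -0.04 and 0.0063. BZR1 (Solyc04g079980.3), a transcription factor of brassinosteroid response, was lower, at 3.0, 3.09 and 2.67 FPKM in slstop1 against 5.43, 4.72 and 5.02 FPKM in WT (log2 -0.63 ± 0.129, limma adjusted p = 0.0109; with quantile normalisation 0.121). NCED2 (Solyc08g016720.1), of the enzyme family that opens abscisic acid synthesis, was higher in slstop1 (log2 0.92 ± 0.205, adjusted p = 0.0161). It too averaged under 5 FPKM and is named after its values were seen, with 3.14 ± 0.888 FPKM in the mutant and 1.18 ± 0.311 FPKM in WT (SD, n = 3). Its call was lost without replicate 1 of slstop1 with Al (0.0615) or replicate 1 of WT with Al (0.061). The other tested genes of the abscisic acid list did not pass: NCED1 had 4.49 ± 0.904 FPKM in the mutant and 8.38 ± 0.814 FPKM in WT (log2 -0.78, adjusted p = 0.065), and the dehydrin TAS14 had 1.33 ± 0.574 FPKM in the mutant and 4.12 ± 1.57 FPKM in WT (log2 -1.11, adjusted p = 0.0744). The groups of both lay apart, with the mutant below. NCED1 was called lower in 3 of 23 alternatives and TAS14 in 4 of 22 (limma adjusted p down to 0.0137 and 0.0304).

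In the redox list, APX2 (Solyc06g005150.3, chromosome 6), an ascorbate peroxidase that removes hydrogen peroxide, was the only 1 of 6 tested members to pass. Over all tested genes 10.2% were lower. APX2 read 42.6, 33.5 and 38.8 FPKM in slstop1 with Al, against 145, 88.8 and 141 FPKM in WT with Al. The groups lay apart (log2 -1.65 ± 0.228 SE, limma adjusted p = 0.00154), and the call held under every alternative. Its neighbour on the chromosome, APX1, had 773 ± 36.9 FPKM in the mutant and 807 ± 138 FPKM in WT (95% interval of the log2 difference -0.42 to 0.32). Both are close relatives, and the table does not show how their shared reads were counted. Of 7 genes of ascorbate and glutathione synthesis and recycling, 2 were lower, against 10.2% of all tested genes. Both belong to ascorbate synthesis, and neither call held under every alternative. Other genes of that synthesis did not pass. GGP1 (222 ± 14.5 FPKM in the mutant, 197 ± 10.9 FPKM in WT) and GGP2 (126 ± 3.50 and 115 ± 6.47 FPKM) lay above WT in every library with Al. GME2 overlapped (25.3 ± 0.877 and 28.9 ± 4.33 FPKM). The median log2 difference of the list was 0.13. GLDH (Solyc10g079470.3), the dehydrogenase of its last step, read 5.13, 3.49 and 5.41 FPKM in slstop1, against 7.96, 9.64 and 9.28 FPKM in WT (log2 -0.82 ± 0.164, adjusted p = 0.00954; with quantile normalisation 0.0561). GME1 (Solyc01g097340.3), an epimerase of an early step, averaged under 5 FPKM in both groups with Al and is named after its values were seen. It had 1.88 ± 0.085 FPKM in the mutant and 4.23 ± 1.31 FPKM in WT with Al (limma adjusted p = 0.0298), and averaged 38.6 FPKM in the mutant and 25.4 FPKM in WT without Al. The recycling enzyme MDHAR, the most abundant of the list, had 869 ± 29.7 FPKM in the mutant and 713 ± 83.4 FPKM in WT and did not pass (adjusted p = 0.453).

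GME1 was not called with quantile normalisation (adjusted p = 0.074), nor without any single replicate of slstop1 with Al or replicate 2 of WT with Al (0.0723 to 0.102). Among heat shock genes 1 of 5 was lower, against 10.2% of all tested genes. HSP90-2 (Solyc07g065840.2), a chaperone, read 343, 348 and 324 FPKM in slstop1, against 512, 885 and 489 FPKM in WT (log2 -0.84 ± 0.221, limma adjusted p = 0.0326). Replicate 2 of WT stood well above the other WT libraries. The call was lost with median-of-ratios scaling (adjusted p = 0.119), with quantile normalisation (0.0531), and without any single replicate of slstop1 with Al or replicate 2 of WT with Al (0.0626 to 0.0985). The same WT library was also high for HSP90-1 (87.9 FPKM, against 24.8 and 33.9 FPKM in the other WT libraries), for the alternative oxidase AOX1a (991 FPKM, against 267 and 287 FPKM) and for the wall enzyme XTH3 (135 FPKM, against 12.8 and 16.1 FPKM). None of these 3 genes passed the test, and their slstop1 libraries lay close to the lower WT values.

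Of 3 tested genes of the cell cycle list 2 were lower in slstop1, and so was 1 of 4 expansins, against 10.2% of all tested genes. CDKB2 (Solyc04g082840.3, chromosome 4), a cyclin-dependent kinase that plants express in dividing cells, read 2.27, 1.24 and 2.47 FPKM in slstop1 with Al, against 6.93, 9.37 and 7.57 FPKM in WT with Al (log2 -1.60 ± 0.217 SE, limma adjusted p = 0.00142). Without Al it averaged 69.8 FPKM in the mutant and 63.5 FPKM in WT, and the interaction was -1.75 (adjusted p = 0.0222), which was lost in 6 of 21 alternatives (up to 0.0712). The difference with Al was called under every alternative in which the gene was tested. CDKB1 (Solyc10g074720.2), of the same kinase class, had 1.14 ± 0.210 FPKM in the mutant and 3.42 ± 1.27 FPKM in WT (log2 -1.01 ± 0.270, adjusted p = 0.0336). The third gene of that list, the cell cycle activator CCS52A, did not pass. The expansin EXP2 (Solyc06g049050.3), of a family that loosens the wall, had 0.563 ± 0.207 FPKM in the mutant and 2.89 ± 1.44 FPKM in WT (log2 -1.25 ± 0.266, adjusted p = 0.0129). The other 3 expansins did not pass.

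CDKB1 and EXP2 averaged under 5 FPKM in both groups with Al and are named after their values were seen. Without Al, CDKB1 averaged 18.9 FPKM in the mutant and 20.0 FPKM in WT, and EXP2 averaged 33.8 FPKM in the mutant and 53.0 FPKM in WT. CDKB1 was not called with median-of-ratios scaling (adjusted p = 0.0828), quantile normalisation (0.101), or when any 1 of 6 libraries was left out (0.0507 to 0.112), the 3 of slstop1 with Al, replicates 1 and 2 of WT with Al, and replicate 1 of slstop1 without Al. EXP2 was lost without replicate 2 of slstop1 with Al (0.054). In the flavonoid list, F3H (Solyc02g083860.3), a hydroxylase early in the pathway, was lower, with 0.41, 0 and 0.63 FPKM in slstop1 against 1.11, 3.48 and 1.54 FPKM in WT (log2 -1.13 ± 0.275, limma adjusted p = 0.0235). Without Al it averaged 24.2 FPKM in the mutant and 20.2 FPKM in WT. It was likewise under 5 FPKM on average with Al and is named after its values were seen. F3H and EXP2 stayed under 1 FPKM in every slstop1 library with Al and passed the filter only through WT. A gene that enters in this way can come out only lower in slstop1. The F3H call was lost with quantile normalisation (0.0512) or if replicate 1 or 2 of slstop1 with Al, or replicate 2 of WT with Al, was left out (0.0513 to 0.102). The other 2 flavonoid genes did not pass.

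Higher in slstop1 were a sugar-cleaving enzyme, a defence enzyme and a WRKY factor, each abundant. LIN6 (Solyc10g083290.4, chromosome 10), a cell wall invertase that splits sucrose outside the cell, read 239, 261 and 221 FPKM in slstop1 with Al, against 120, 192 and 139 FPKM in WT with Al (log2 0.70 ± 0.170 SE, limma adjusted p = 0.0236). It stayed higher and called under both scalings, but lost its call without either replicate 1 or 2 of slstop1 with Al or replicate 1 or 3 of WT with Al (0.0598 to 0.1). TD (Solyc09g008670.3, chromosome 9), a threonine deaminase, read 108, 142 and 117 FPKM in slstop1, against 40.9, 89.0 and 70.3 FPKM in WT (log2 0.93 ± 0.258, adjusted p = 0.04). Without Al it was under 0.5 FPKM in every library of both genotypes. WRKY81 (Solyc09g015770.3) read 104, 97.2 and 124 FPKM in slstop1, against 83.3, 78.9 and 71.8 FPKM in WT (log2 0.46 ± 0.132, adjusted p = 0.0443).

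TD was not called when any 1 of 9 libraries was left out (adjusted p 0.0523 to 0.161), and WRKY81 when any 1 of 10 was left out (0.0586 to 0.167). For TD the exceptions were replicate 2 of WT with Al, replicate 1 of slstop1 without Al and replicate 3 of WT without Al; for WRKY81 they were replicate 2 of slstop1 without Al and replicate 3 of WT without Al. WRKY45 (Solyc08g067360.3, chromosome 8) went the other way, at 15.3, 12.7 and 19.4 FPKM in slstop1 against 28.9, 26.0 and 27.7 FPKM in WT (log2 -0.78 ± 0.200, limma adjusted p = 0.0296). Without Al it averaged 2.25 FPKM in the mutant and 1.24 FPKM in WT, a difference of 0.56 on the log2 scale (interaction -1.34, adjusted p = 0.0437, lost in 14 of 22 alternatives). Its call with Al was lost with median-of-ratios scaling (0.0753), quantile normalisation (0.0868), and when replicate 1 or 2 of slstop1, or any single replicate of WT, was left out from the libraries with Al (0.0535 to 0.131). Among abundant defence genes that did not pass, the osmotin-like NP24 had 4420 ± 256 FPKM in the mutant and 3560 ± 313 FPKM in WT. The chitinase CHI3 had 391 ± 27.8 FPKM in the mutant and 616 ± 244 FPKM in WT.

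**Figure D5:**
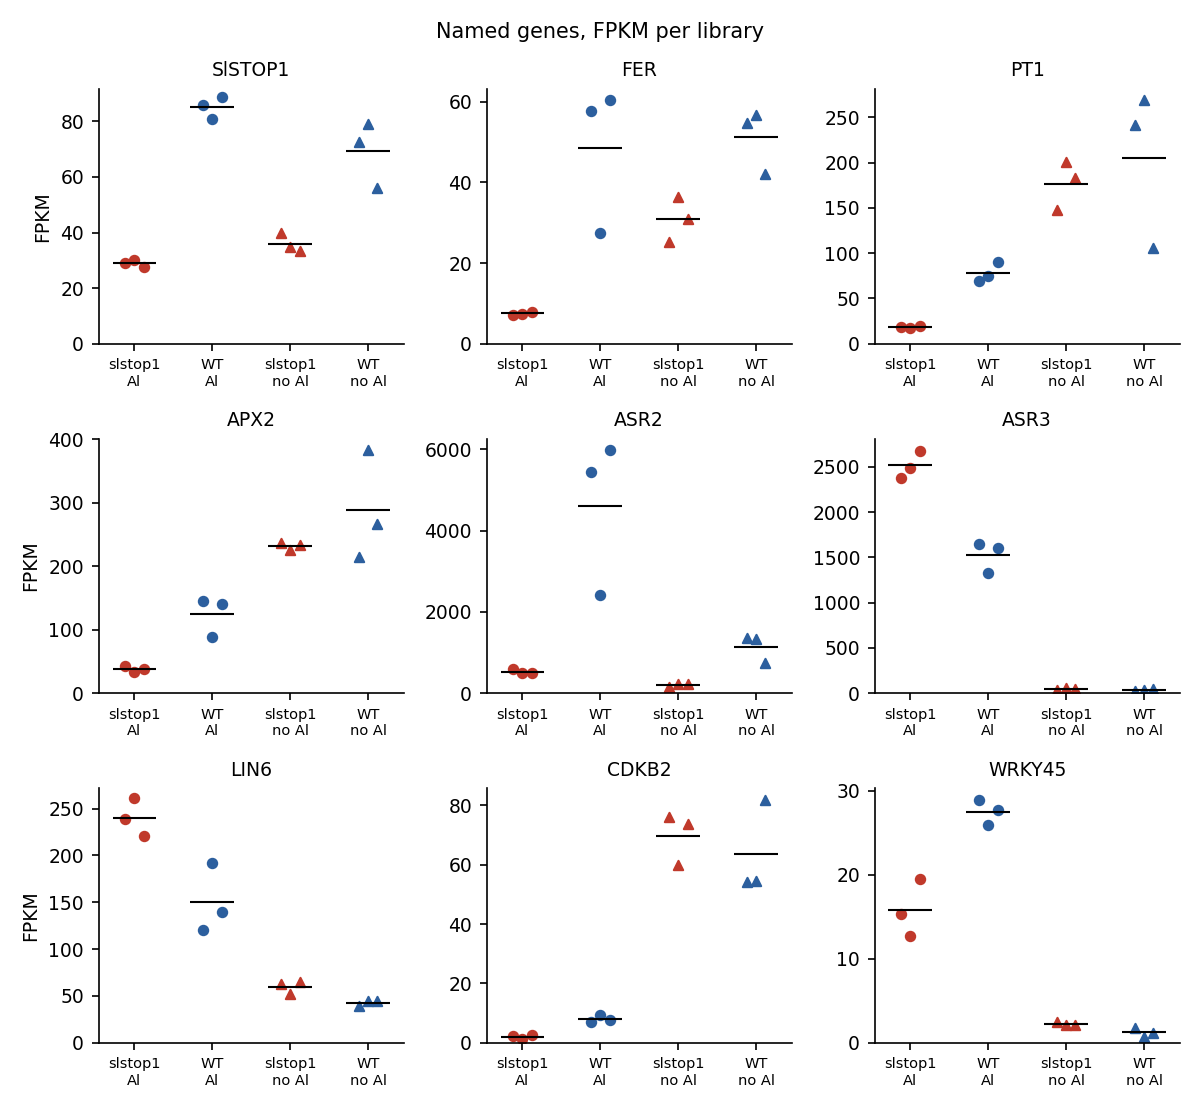
FPKM of 9 named genes in each library, with slstop1 in red and WT in blue, circles with Al and triangles without, and bars at the means of 3 replicates. SlSTOP1, FER, PT1, APX2, ASR2, CDKB2 and WRKY45 lie lower, and ASR3 and LIN6 higher, in slstop1 with Al than in WT with Al; CDKB2 is low and ASR3 high in both genotypes with Al.

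Genes without an assigned name are given by identifier where they had the largest differences. Solyc03g020010.1 on chromosome 3 had the largest gain in FPKM, with 11653, 12258 and 11808 FPKM in slstop1 with Al against 5189, 6044 and 6868 FPKM in WT with Al (log2 0.99 ± 0.156 SE, limma adjusted p = 0.00308). Its genotype difference without Al was almost the same, 0.98, at levels of 241 FPKM in the mutant and 121 FPKM in WT. Solyc03g036460.2 had the largest log2 rise, 4.05 ± 0.739 (adjusted p = 0.00642), with 32.5, 56.1 and 18.3 FPKM in the mutant and 5.33, 0.08 and 0.20 FPKM in WT. Its difference without Al was 3.81 and did not pass (adjusted p = 0.128), while that of Solyc03g020010.1 did (0.0466).

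Solyc03g082520.1, again on chromosome 3, had the largest loss in FPKM, with 410, 551 and 537 FPKM in slstop1 with Al against 2606, 1665 and 2507 FPKM in WT with Al (log2 -2.16 ± 0.258, limma adjusted p = 0.000704). Without Al the difference was -2.07, at 13.6 FPKM in the mutant and 58.2 FPKM in WT. Solyc10g083410.1 on chromosome 10 had the largest log2 fall, -4.51 ± 0.502 (adjusted p = 0.00047). It read 0, 1.02 and 5.36 FPKM in slstop1 with Al and 45.3, 47.7 and 66.7 FPKM in WT with Al, while without Al it averaged 44.9 FPKM in the mutant and 31.6 FPKM in WT. The genotype difference with Al was thus far from that without Al (interaction -5.01, adjusted p = 0.00854).

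Filters, pseudocounts, a block for the replicate number and the choice of libraries ended further calls among the named genes. With no filter on low values, ME1, PIN2, LAX3, HSP90-2, GME1, F3H, PIP2-4, PIP2-6, ASR3, TD, CDKB1, WRKY45, WRKY81 and GAPDH missed the limma threshold (adjusted p 0.0505 to 0.0773). With only the 6 libraries with Al, ME1, NCED2, BZR1, PIN2, LAX3, HSP90-2, GME1, LIN6, F3H, PIP2-9, TD and WRKY81 missed it (0.0509 to 0.0801). A pseudocount of 0.1 ended the calls of NCED2, WRKY45 and TD (0.0675, 0.0841 and 0.277), and a pseudocount of 5 ended those of PIN2, LAX3, GME1, F3H, EXP2 and CDKB1 (0.0818 to 0.181). WRKY81 also missed the threshold in the fit with no trend (0.0624). With the replicate number as a block, ME1, PIN2, LAX3, HSP90-2, PIP2-4, ASR3, TD, CDKB1 and WRKY81 missed it (0.0524 to 0.0835).

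Genes often used as references, and markers of green tissue, were read as checks on the libraries. GAPDH (Solyc05g014470.3), a glycolytic enzyme, was lower in slstop1, with 279, 218 and 263 FPKM against 504, 432 and 353 FPKM in WT (log2 -0.75 ± 0.189, limma adjusted p = 0.0268). That call was lost with median-of-ratios scaling (0.161) and without any single replicate of slstop1 with Al or replicate 1 or 2 of WT with Al (0.0512 to 0.123). UBI3 and RPL8 had log2 differences of -0.74 and -0.68 and did not pass, and CAC, a clathrin adaptor gene, had 35.8 ± 0.626 FPKM in the mutant and 36.2 ± 3.78 FPKM in WT. EF1a had 5.20 ± 1.06 FPKM in the mutant and 3.74 ± 2.91 FPKM in WT (log2 0.55, adjusted p = 0.575). Of 4 green tissue markers 2 were tested, the summed level of all 4 was 66.5 to 87.5 FPKM in slstop1 with Al and 24.8 to 38.5 FPKM in WT with Al, and neither tested gene passed. RBCS2, a Rubisco small subunit, made up most of this, with 64.2, 56.3 and 76.8 FPKM in the mutant and 13.1, 24.1 and 26.9 FPKM in WT (adjusted p = 0.106). PSBO, of the photosystem, had 10.5 ± 0.360 FPKM in the mutant and 12.1 ± 1.06 FPKM in WT. The part of green tissue in the results was not tested.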

How the data were processed

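The authors deposited 1 table with values for 35768 gene models in 12 libraries, taken here to be FPKM. The unit is not named in it, and its columns sum to between 696287 and 719916. Per the submitters' processing notes, TopHat2, HISAT2, StringTie and Cufflinks were used; their versions and roles, the genome build and the annotation release were not given in the sources used here. Groups and replicate numbers come from the sample titles. All 12 columns belong to samples of the series. Nothing beyond the label says that replicates were separate cultures, so p-values measure the spread between these samples. FPKM keeps no read total, so no counting interval is given. An exact 0 can be a failed estimate. Of the gene models detected, 1501 duplicated the values of another in every library, and 0 of these were called. How many of the 1501 passed the filter is not given, so this count does not show what duplicated values do to the calls.

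The test used log2(FPKM + 1), a scale that understates changes of low genes. A group-means model over 12 libraries (8 residual degrees of freedom) was fitted (limma 3.58.1, R 4.3.3, eBayes trend). Tests were two-sided; a gene was called at a Benjamini-Hochberg adjusted p under 0.05 over 13090 genes, and errors are limma's standard errors. On simulated data for this comparison (13090 genes), limma called 50 of 100 genes changed by a log2 of 1, 91 of 100 changed by 2, and 7 of 12890 unchanged genes. Only genes with a mean log2 level above 2 were changed there, and all groups shared a gene's mean and spread. No shift between the genotypes was simulated, so these rates do not cover low genes or the shift seen in the data. Exact permutation tests served for the library measures. Tables and figures were made in Python 3.11.15 with numpy 2.4.6, pandas 2.3.3 and matplotlib 3.10.9.

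Named genes were SlSTOP1, up to 4 called members per list with a mean of at least 5 FPKM in a compared group, and the genes in no list with the largest rise and fall on the log2 and FPKM scales; 6 members under that level are named besides, after their values were seen. The members and lists were chosen with earlier results of these data known. Identifiers matched 0 entries of the RefSeq table directly, and of 189 neighbouring named pairs 185 were in the same order in both. Alternatives were other pseudocounts, filters, scalings and eBayes settings, only the libraries with Al, the replicate number as a block, a minimum log2 difference, and leaving out each library.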

Additional observations from a re-analysis of the deposited data

Results flagged for a closer look

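The genotype difference with Al departed from that without Al, by the interaction term of the same fit, for 6 of the genes described. Solyc10g083410.1 had an interaction of -5.01 on the log2 scale (limma adjusted p = 0.00854; 0.000517 to 0.0544 over the alternatives), with 2.13 ± 2.85 FPKM in slstop1 and 53.2 ± 11.7 FPKM in WT with Al. For PT1 it was -1.89 (adjusted p = 0.0474; 0.0102 to 0.122), for CDKB2 -1.75 (0.0222; 0.0103 to 0.0712) and for FER -1.74 (0.0474; 0.00296 to 0.118). GME1 had -1.44 (0.0432; 0.0322 to 0.111) and WRKY45 had -1.34 (0.0437; 0.0398 to 0.138), and both of these had a positive genotype difference without Al, 0.61 for GME1 and 0.56 for WRKY45. The call was lost in 1 of 22 alternatives for Solyc10g083410.1 and in 6 of 21 for CDKB2. It was lost in 17 of 22 for FER, 15 of 22 for PT1, 16 of 21 for GME1 and 14 of 22 for WRKY45.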

How the results depend on the processing

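The count of called genes, 1530 (192 higher, 1338 lower), was 934 (121 higher, 813 lower) at a mean of at least 5 FPKM, 818 (110 and 708) at a log2 difference of at least 1, 1424 (559 and 865) with median-of-ratios scaling, and 1172 (454 and 718) with quantile normalisation. Only the 6 libraries with Al gave 1349 (293 and 1056). Leaving out 1 library gave 668 to 2478 in all, 74 to 394 higher and 594 to 2084 lower. With pseudocounts of 0.1 and 5, no filter, and eBayes without trend or robust, counts were 1568, 1164, 1151, 1530 and 1521. Deviations of same-numbered slstop1 and WT libraries with Al correlated at -0.073, -0.0012 and -0.054, so no pairing by number was seen among these. The libraries without Al were not compared in this way. With the replicate block 1208 genes were called (139 and 1069). Over 35 called genes described, 13 kept the call under every alternative and 22 under both scalings, and no sign turned. Both library measures kept their direction with each library with Al left out, at 5 FPKM or with median-of-ratios scaling for the genes detected, and over the 100 most abundant genes for the share. Precision is limited by 3 replicates per group and by the unknown depth.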
